A study of Arabidopsis thaliana with 12 samples.

Results

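Wild-type Arabidopsis thaliana seedlings were compared at 12 and at 5 days of age. The comparison used 6 of the 12 RNA-seq libraries of the series, chosen by genotype and age in their titles: 3 libraries of 12-day-old plants, numbered 6, 10 and 12, and 3 of 5-day-old plants, numbered 2, 4 and 8. Both ages were the Columbia wild type (stock N6000), with no treatment named in the labels. The other 6 libraries come from the geralt mutant, which the labels also call phr2, at the same ages. They enter a test of whether the age effect differed between the genotypes, with the age change within geralt. They also enter a description of 5-day library 4 and an alternative fit of all 12 libraries. Plants of both ages were raised on B5 medium containing 1% sucrose at 23 °C, with days of 10 h and nights of 14 h. Whole seedlings were collected some 4 h into the light period, and 100 mg of tissue gave the polyadenylated RNA that was sequenced. The 3 libraries of an age are called biological replications, but how the plants were kept apart or pooled is not described, so p-values measure the spread between these libraries.

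As background, a seedling a few days old lives partly on what remains of its seed oil, opens its cotyledons and builds chloroplasts in them. In the following week it makes its first true leaves, extends and branches its root, and depends on its own photosynthesis and on minerals from the medium. Young plants hold much of the microRNA miR156, which acts against mRNAs of the SPL transcription factors. As miR156 falls with age, SPL proteins promote adult leaf traits and flowering, in part through miR172, which acts against repressors of the AP2 family. Phosphate shortage is sensed through SPX proteins and PHR transcription factors, which switch on phosphate transporters, phosphatases and enzymes that replace phospholipids with lipids free of phosphate.

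The libraries held 41.6 to 115 M gene reads, and depth was not ordered by age (means of 70.8 ± 18.9 M at 12 days and 71.5 ± 38.6 M at 5 days, SD, n = 3 each). Libraries of the same age differed by far more than counting error, so none was a duplicate of another. Libraries 6 and 12 of 12 days and library 4 of 5 days stood apart from the rest of their age. On the first axis of a plot of distances between libraries, which carries 36.1% of the variation, 12-day library 6 lay at -0.26, against 1.93 and 1.86 for 12-day libraries 10 and 12. The 5-day libraries lay at -1.43, -1.05 and -1.06. The second axis, with 25.6% of the variation, set 12-day library 12 at -2.05 apart from 12-day library 10 at 1.71.

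**Figure D1:**
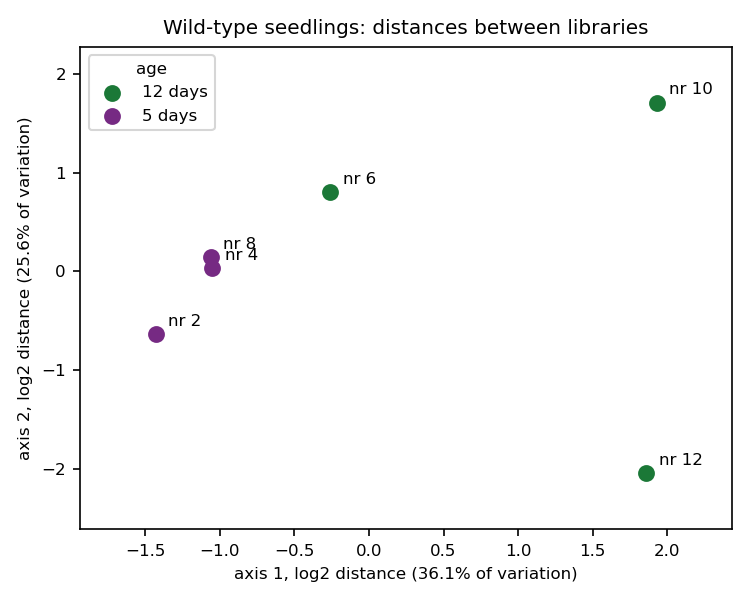
Distances between the 6 wild-type libraries on the first and second axes of multidimensional scaling of log2 CPM (log2 distance units, share of variation on each axis). Points are libraries, coloured by age (12 days, 5 days). Library 6 of 12 days lies between the other two 12-day libraries and the 5-day group on axis 1.

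Root and plastid RNA marked out 12-day library 12. Levels are given as CPM, gene reads scaled to a common library size after TMM scaling of library sizes. The 27 root marker genes tested had a median of -1.32 in 12-day library 12, as log2 CPM relative to each gene's mean of the 6 libraries. The same median was 0.68 in 12-day library 6 and 0.46 in 12-day library 10, against 0.00, 0.06 and 0.05 in the 5-day libraries. The root marker CASP1, a protein of the endodermal Casparian strip, stood at 64.3, 102 and 12.8 CPM in 12-day libraries 6, 10 and 12, against 27, 26.6 and 29.6 CPM at 5 days. In bulk RNA, fewer cells of a type and less RNA per cell cannot be told apart. Plastid-encoded genes gave 0.156% of gene reads in 12-day library 12, 0.712% to 0.755% in the other two 12-day libraries, and 0.618% to 0.837% at 5 days. Most plastid mRNAs carry no stable poly(A) tail, so their share in polyadenylated RNA is not a plain measure of plastid transcription.

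Library 4 of 5 days stood apart in stress and photosynthesis genes. Its median over 22 rapid stress genes was 1.61, against -0.16 and -0.41 in 5-day libraries 2 and 8, and over 33 nuclear genes of photosynthetic electron transport it was -0.97, against 0.03 and 0.05. Below 0.5 CPM in each of the remaining 5 wild-type libraries and above 2 CPM in all 6 of geralt were 7 genes, which library 4 held at 30.8% to 52.1% of their mean in 5-day geralt libraries (median 42.2%). Where this RNA came from was not tested. Where leaving out 1 of the 6 libraries moved the median of a gene group by over 1.5 times or changed its sign, the value without that library is given beside it.

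No gene passed an adjusted p of 0.05 in edgeR's quasi-likelihood test (0 of 20569 genes tested; smallest adjusted p 0.171). Of these genes, 3429 (16.7%) had an unadjusted p under 0.05, with 1894 (9.21%) higher and 1535 (7.46%) lower at 12 days. Each 12-day library lay above each 5-day library for 2199 genes (10.7%), and below each for 2558 genes (12.4%). Such genes are called separated below. DESeq2's Wald test, run on the same reads as an alternative, called 909 of 21338 genes (4.26%), 592 (2.77%) higher and 317 (1.49%) lower. Of the 891 of these that edgeR also tested, 836 were separated. With 12-day library 6 left out, edgeR called 117 genes, 76 higher and 41 lower. With 12-day library 12 left out it called 115, 110 higher and 5 lower, and with 12-day library 10 or any single 5-day library left out it called 0. Of these calls, 10 genes stood in both lists: VSP2, RDL5_3, GolS4, AT1G76955, GRP3S, KDR, RCI2A, FBA5, ASN1 and AKR4C8. Of these, GRP3S and AKR4C8 were lower at 12 days and the other 8 were higher. Libraries 6 and 12 had been set apart by these same data, so calls made without either are no separate evidence of an age change.

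VSP2 (AT5G24770), which encodes a vegetative storage protein and is a classic jasmonate-responsive gene, had the smallest p of all genes. It stood at 36, 81.4 and 49.4 CPM in 12-day libraries 6, 10 and 12, against 7.45, 4.75 and 3.9 CPM in 5-day libraries 2, 4 and 8. Every 12-day library lay well above every 5-day library, and the log2 fold change was 3.38 ± 0.39 (SE; edgeR adjusted p 0.171, DESeq2 adjusted p 1.11e-13). ASN1 (AT3G47340), a glutamine-dependent asparagine synthetase known as a dark- and sugar-starvation-induced gene, stood at 37.7, 138 and 139 CPM at 12 days, against 11.4, 6.29 and 11.4 CPM at 5 days. Its log2 fold change was 3.44 ± 0.51 (edgeR adjusted p 0.171, DESeq2 adjusted p 7.7e-10). FBA5 (AT4G26530), a cytosolic fructose-bisphosphate aldolase, reached 345, 870 and 952 CPM at 12 days, against 107, 88.9 and 116 CPM at 5 days, and GolS4 (AT1G60470), a galactinol synthase, 9.68, 5.95 and 6.09 CPM at 12 days, against 0.856, 1.12 and 1.38 CPM at 5 days. For both, the 12-day libraries lay well above the 5-day ones, and library 6 did not stand low for GolS4. RCI2A (AT3G05880), a small membrane protein induced by cold, averaged 60 ± 13.4 CPM at 12 days and 15.1 ± 3.52 CPM at 5 days (SD, n = 3 each). KDR (AT1G26945), a small helix-loop-helix protein of light signalling, averaged 46.9 ± 15.2 CPM at 12 days and 11.8 ± 2.06 CPM at 5 days (SD, n = 3 each). The cysteine protease gene RDL5_3 (AT4G11320) averaged 242 ± 68.9 CPM at 12 days and 38.5 ± 10.6 CPM at 5 days (SD, n = 3 each). AT1G76955, AT1G77530 and AT3G28220 complete the 12 genes with the smallest p, and these 3 were higher in every 12-day library, with log2 fold changes of 2.85, 2.9 and 2.51.

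Among genes lower at 12 days, GRP3S (AT2G05380), a glycine-rich protein, stood at 36.7, 24.9 and 14.1 CPM at 12 days, against 177, 140 and 117 CPM at 5 days, a log2 fold change of -2.52 ± 0.37 (edgeR adjusted p 0.171, DESeq2 adjusted p 9.82e-08). AKR4C8 (AT2G37760), an aldo-keto reductase, averaged 16.4 ± 3.67 CPM at 12 days and 50.3 ± 6.29 CPM at 5 days (SD, n = 3 each). Both genes were separated by wide gaps. Among separated genes with an unadjusted p under 0.05 and a mean level of 1 or more on the log2 CPM scale, the largest negative log2 fold change was that of TH8 (AT1G69880), an h-type thioredoxin, at -3.75 ± 0.73, with 1.22, 0.602 and 0.204 CPM at 12 days, against 14.7, 3.41 and 9.08 CPM at 5 days. UGT74E2 (AT1G05680), a glucosyltransferase that acts on the auxin indole-3-butyric acid, stood at 3.94, 2.22 and 3.43 CPM at 12 days, against 21.5, 16.6 and 9.42 CPM at 5 days. The rest of the 12 largest negative changes belonged to ELIP2, AT2G18193, AT1G80130, GSTU25, NAC044, AT2G43620, SULTR3;2, AT4G23680 and AT4G14020, with log2 fold changes of -3.11 to -2.3. AT2G43620 illustrates the spread at 12 days, with 50.7, 3.47 and 3.49 CPM in libraries 6, 10 and 12, against 116, 51.5 and 145 CPM at 5 days.

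The 12 largest positive changes, from 3.94 to 6.07 on the log2 scale, all had library 6 as the lowest 12-day library except FRO5 (24.9, 104 and 5.72 CPM in 12-day libraries 6, 10 and 12, against 1.02, 3.79 and 3.88 CPM at 5 days). PIRL8, a leucine-rich repeat protein, had 0.954, 35.2 and 8.78 CPM at 12 days, against 0, 0.234 and 0.401 CPM at 5 days. NRT2.6, of the high-affinity nitrate transporter family, had 3.02, 76.2 and 28.2 CPM at 12 days, against 2.71, 0.579 and 0.714 CPM at 5 days. In both genes library 6 lay close to the highest 5-day library, and the high values were those of libraries 10 and 12. ACD6, an ankyrin protein that promotes salicylic acid defence, had 1.75, 23.1 and 33.1 CPM at 12 days, against 0.741, 1.29 and 1.41 CPM at 5 days. In LURP1, CRK4, CYP76C2 and AT3G22235 library 6 was likewise the lowest at 12 days, and the remaining 4 of the 12, PAP14, PS2, PHT1;2 and PHT1;5, are genes of phosphate shortage.

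With all libraries included, phosphate starvation genes had the highest median of the 33 gene groups described here. Over the 27 of 30 members tested the median log2 fold change was 1.26, against 0.02 over all genes tested. By edgeR's unadjusted p, 13 members were higher and 1 lower, where 9.21% and 7.46% of all genes were. Separated members numbered 11 upward and 1 downward, where 10.7% and 12.4% of all genes were separated, and DESeq2 called 9 members higher, where it called 2.77% of all genes higher. The median was 1.51 without 12-day library 6, 0.99 without 12-day library 12 and 0.96 without 12-day library 10. Without library 10 the auxin group's median was higher, at 1.04. By limma on log2 TPM, an alternative described below, the phosphate group's median was 0.61. By library, the group's median level was -0.20, 0.86 and 0.67 in 12-day libraries 6, 10 and 12, against -0.77, -0.84 and -0.42 at 5 days. The group was thus high in 2 libraries of 12-day plants and only slightly above the 5-day level in the third.

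PHR factors bind a palindrome with the letters GNATATNC, known as P1BS. It was found in the promoter window, from 250 bases before to 50 bases after the gene start, of 13 of the 30 group members (43.3%) and of 1716 of 27444 genes of the 5 chromosomes (6.25%). Among all genes separated upward it was found in 7.14% of windows, against 6.18% for genes tested. The share in the group thus describes a known list and not the age change. A palindrome reads the same on both strands, a match here may overlap matches of other motifs, and a match is a description of the letters, not evidence of binding. The windows of 3 members with large changes are shown because they hold the motif, which is in capitals. They were read 5′ to 3′ on the gene's strand from the RefSeq assembly TAIR10.1, where PAP14 lies at chr2:19266407-19266706 (minus strand), GDPD1 at chr3:349961-350260 (minus strand) and PHT1;2 at chr5:17415448-17415747 (plus strand).
PAP14: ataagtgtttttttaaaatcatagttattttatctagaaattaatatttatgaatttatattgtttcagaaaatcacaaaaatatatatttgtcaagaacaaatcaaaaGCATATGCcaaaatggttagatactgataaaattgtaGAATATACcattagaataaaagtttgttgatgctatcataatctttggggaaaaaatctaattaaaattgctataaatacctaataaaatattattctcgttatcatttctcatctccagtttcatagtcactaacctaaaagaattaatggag
GDPD1: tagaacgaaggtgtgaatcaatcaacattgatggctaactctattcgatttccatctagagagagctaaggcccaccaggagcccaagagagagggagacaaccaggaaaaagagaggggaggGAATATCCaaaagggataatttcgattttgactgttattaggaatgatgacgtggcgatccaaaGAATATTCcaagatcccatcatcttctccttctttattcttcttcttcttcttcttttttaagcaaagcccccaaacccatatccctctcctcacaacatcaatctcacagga
PHT1;2: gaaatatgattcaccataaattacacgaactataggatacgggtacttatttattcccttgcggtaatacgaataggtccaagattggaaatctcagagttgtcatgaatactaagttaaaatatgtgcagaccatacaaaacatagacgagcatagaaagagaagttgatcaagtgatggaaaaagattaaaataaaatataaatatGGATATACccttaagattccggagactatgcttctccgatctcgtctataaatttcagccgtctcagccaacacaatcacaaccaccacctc

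Among phosphatases, PAP14 (AT2G46880), a purple acid phosphatase with 2 P1BS matches above, stood at 0.906, 21.6 and 15 CPM in 12-day libraries 6, 10 and 12, against 0.324, 0.4 and 0.418 CPM at 5 days. Its log2 fold change was 5.02 ± 0.97 (edgeR adjusted p 0.171, DESeq2 adjusted p 9.46e-09), and it was 5.57 with an edgeR adjusted p of 0.00596 when library 6 was left out. As library 6 held the lowest 12-day value, that call is no separate evidence of an age change. PS2 (AT1G73010), a phosphatase of the same response, stood at 2.1, 39.1 and 26.6 CPM at 12 days, against 1.94, 1.38 and 0.575 CPM at 5 days. Both were separated, but library 6 lay only just above the highest 5-day library for PS2. PAP10, a root-surface acid phosphatase, went the other way, with 57.1, 33.5 and 36.5 CPM at 12 days, against 86.5, 85.7 and 64.5 CPM at 5 days (log2 fold change -0.9 ± 0.27).

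Among enzymes of lipid replacement, SQD2, MGD3, MGD2 and GDPD1 were separated upward, while SQD1, DGD2, NPC4 and PLDZ2 overlapped and NPC5 had 0 reads. SQD2 (AT5G01220), an enzyme of sulfolipid synthesis, whose product can replace phospholipids, had 74.1, 205 and 291 CPM at 12 days, against 44.5, 38.3 and 49 CPM at 5 days, a log2 fold change of 2.11 ± 0.44 (edgeR adjusted p 0.171, DESeq2 adjusted p 0.00029). MGD3 (AT2G11810), a galactolipid synthase induced by phosphate shortage, had 4.72, 23.5 and 23.3 CPM at 12 days, against 3.15, 1.6 and 1.85 CPM at 5 days (log2 fold change 2.98 ± 0.59). GDPD1 (AT3G02040), a phosphodiesterase that breaks down phospholipid remnants, had 35, 159 and 145 CPM at 12 days, against 23.7, 22.1 and 30.7 CPM at 5 days (log2 fold change 2.15 ± 0.5). In SQD2, MGD3 and GDPD1 libraries 10 and 12 held the high values and library 6 lay between them and the 5-day libraries. Without library 6, edgeR called GDPD1, MGD3 and SQD2 with adjusted p of 0.0195, 0.0195 and 0.0201. Library 6 held the lowest 12-day value of each, so these calls rest on leaving it out and are no separate evidence of an age change.

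Phosphate transporters were highest in library 10. PHT1;1 (AT5G43350), a main uptake transporter of roots, had 248, 652 and 196 CPM at 12 days, against 104, 102 and 150 CPM at 5 days (log2 fold change 1.62 ± 0.45, and 0.92 without library 10). PHT1;2 (AT5G43370), its near-identical neighbour, had 1.16, 72 and 5.08 CPM at 12 days, against 0.44, 0.324 and 0.523 CPM at 5 days (log2 fold change 5.94 ± 1.39, and 2.88 without library 10). Reads shared between the 2 copies make their separate levels uncertain. The sensor gene SPX1 had 8.71, 23.5 and 78.9 CPM at 12 days, against 3.15, 25.9 and 7.37 CPM at 5 days, so the ages overlapped, and its log2 fold change of 1.6 ± 0.87 had an edgeR adjusted p of 0.39.

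**Figure D2:**
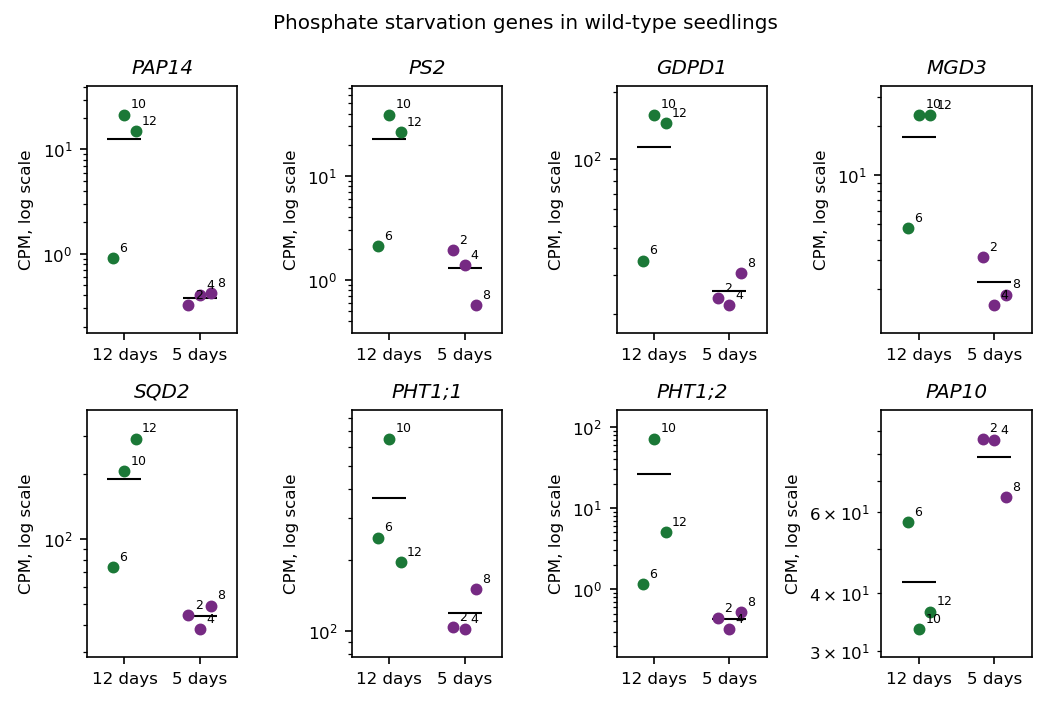
Level of 8 phosphate starvation genes in each wild-type library (CPM, log axis; points are libraries labelled by number, horizontal lines are means, 12 days on the left, 5 days on the right). In 7 genes 12-day libraries 10 and 12 lie above all 5-day libraries, with library 6 lower than library 10, and PAP10 lies lower at 12 days.

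Genes of phase change and flowering time gave a median log2 fold change of 0.27 over the 32 of 36 members tested, against 0.02 over all genes. The median was 0.44 without 12-day library 6. By unadjusted p, 7 were higher and 1 lower, where 9.21% and 7.46% of all genes were. Separated members numbered 7 upward and 2 downward, where 10.7% and 12.4% of all genes were, and DESeq2 called 3 higher, where it called 2.77% of all genes higher. Because SPL mRNAs are the targets of miR156, the mature miR156a (20 bases, chr2:10676534-10676553, minus strand) is shown with the matching sites of 3 SPL genes. The microRNA's seed, bases 2 to 8, is in capitals. In the sites, capitals mark bases that differ from the exact complement of miR156a, so a G:U pair counts as a mismatch. SPL9 (chr2:17589066-17589085, plus strand) and SPL15 (chr3:21444834-21444853, minus strand) carry the site in the coding sequence, with 1 mismatch each. SPL3 (chr2:14305878-14305897, plus strand) carries it in the 3′ UTR with 2 mismatches. Sequences are RefSeq's, read from TAIR10.1, 5′ to 3′. MicroRNAs themselves were not measured in these libraries.
miR156a: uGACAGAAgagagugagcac
SPL9 site: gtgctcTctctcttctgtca
SPL15 site: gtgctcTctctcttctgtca
SPL3 site: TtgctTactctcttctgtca

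SPL9, a promoter of adult leaf traits, stood at 4.17, 4.72 and 4.64 CPM in 12-day libraries 6, 10 and 12, against 1.11, 2.9 and 1.95 CPM at 5 days, a log2 fold change of 1.17 ± 0.39 (edgeR adjusted p 0.213, DESeq2 adjusted p 0.0751). SPL15, its close relative, stood at 4.64, 7.1 and 3.39 CPM at 12 days, against 1.85, 2.16 and 2.39 CPM at 5 days, a log2 fold change of 1.24 ± 0.36 (edgeR adjusted p 0.191, DESeq2 adjusted p 0.0418). Both were separated, with library 6 close to the other 12-day libraries. SPL3 overlapped, with 0.334, 3.93 and 1.32 CPM at 12 days, against 0.694, 0.289 and 0.418 CPM at 5 days, a log2 fold change of 2.01 ± 0.82 (edgeR adjusted p 0.274, and 0.86 on the log2 scale without library 10). SPL5 overlapped too, with 1.22, 2.34 and 3.6 CPM at 12 days, against 1.23, 0.469 and 0.766 CPM at 5 days (log2 fold change 1.56 ± 0.55, edgeR adjusted p 0.222). SPL4 stood at 0.572 to 0.694 CPM at 12 days and 0.645 to 0.799 CPM at 5 days. SPL9 and SPL15 were thus separated, while SPL3 and SPL5 had fold changes at least as large as theirs but overlapped, and SPL4 overlapped with a log2 fold change of -0.13 ± 0.48.

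SOC1 (AT2G45660), the MADS-box integrator of flowering signals, stood at 11.9, 26 and 29.3 CPM at 12 days, against 6.13, 8.16 and 6.08 CPM at 5 days. It was separated, with a log2 fold change of 1.72 ± 0.35 (edgeR adjusted p 0.171, DESeq2 adjusted p 0.00111), and edgeR called it without library 6 (log2 fold change 2.02, adjusted p 0.0372). That call rests on leaving out the lowest 12-day value. FD, the bZIP partner of the florigen FT, stood at 3.63, 18.8 and 4.72 CPM at 12 days, against 1.44, 1.27 and 1.24 CPM at 5 days (log2 fold change 2.78 ± 0.62, and 1.68 without library 10). FT itself had 0.0318, 0 and 0.279 CPM at 12 days, against 0, 0.0827 and 0.401 CPM at 5 days, too few reads for a test. The inflorescence gene TFL1 was lower, at 0.239, 0.278 and 0.0857 CPM at 12 days, against 0.579, 0.558 and 0.993 CPM at 5 days (log2 fold change -1.84 ± 0.68, edgeR adjusted p 0.237). The floral repressors overlapped between the ages. FLC stood at 1.06 to 4.21 CPM at 12 days and 2.19 to 4.09 CPM at 5 days, SMZ at 0.643 to 2.42 CPM at 12 days and 1.74 to 2.45 CPM at 5 days, and TOE1 at 44.2 to 90 CPM at 12 days and 48.4 to 72 CPM at 5 days.

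Some leaf development genes of the TCP family, which limit the growth of leaf margins and are targets of another microRNA, were separated upward. TCP2 stood at 60.5, 66.2 and 56.7 CPM at 12 days, against 36.2, 36 and 26.6 CPM at 5 days, a log2 fold change of 0.89 ± 0.22 (edgeR adjusted p 0.172, DESeq2 adjusted p 0.028). TCP4 stood at 83.8, 80.8 and 89 CPM at 12 days, against 62.7, 51.8 and 80.7 CPM at 5 days (log2 fold change 0.38 ± 0.23). TCP3 and TCP24 were also separated upward. GRF5, a growth-regulating factor that prolongs leaf cell division, stood at 7.65, 4.53 and 7.39 CPM at 12 days, against 3.47, 3.23 and 3.83 CPM at 5 days. Over the 34 of 36 members tested of the shoot meristem and leaf group, 9 were separated upward and 3 downward, where 10.7% and 12.4% of all genes were. The group's median log2 fold change was 0.15, and 0.23 without 5-day library 4. The meristem gene STM overlapped, at 5.33 to 6.85 CPM at 12 days and 4.86 to 9.24 CPM at 5 days.

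**Figure D3:**
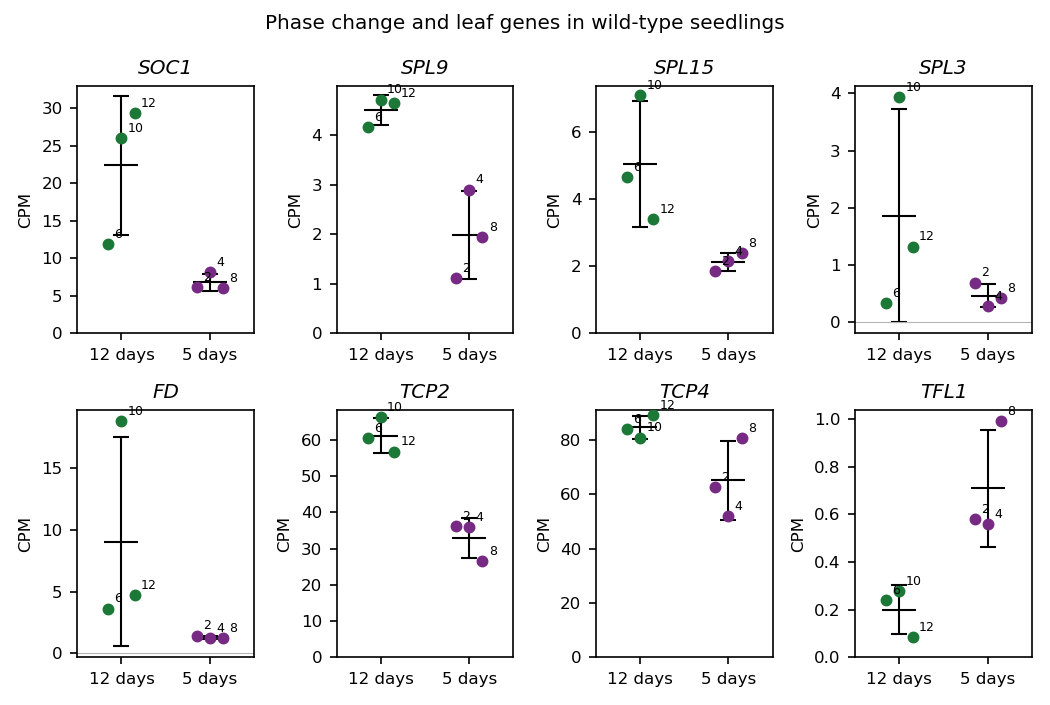
Level of 8 phase change and leaf genes in each wild-type library (CPM, linear axes; points are libraries labelled by number, horizontal lines and bars are the mean ± SD of 3 libraries, 12 days on the left, 5 days on the right). SPL3 overlaps between the ages, TFL1 lies lower at 12 days, and the other 6 lie higher in every 12-day library, TCP4 only just.

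Cell cycle genes showed a median log2 change of -0.48 over all 43 members, of which 5 had a log2 fold change above 0. The median was -0.75 without 12-day library 6 and -0.26 without 12-day library 10. Separated members numbered 6 downward and 0 upward, and 4 were lower by unadjusted p. Over all genes, 12.4% were separated downward and 7.46% were lower by unadjusted p, so both downward counts lay near the background. CYCD3;3, a cyclin that keeps leaf cells dividing, stood at 6.55, 3.7 and 6 CPM at 12 days, against 8.75, 12.2 and 9.16 CPM at 5 days (log2 fold change -0.89 ± 0.3, edgeR adjusted p 0.217). The mitotic cyclin CYCB1;1 overlapped, at 8.08, 2.08 and 3.02 CPM at 12 days, against 9.37, 10.6 and 7.51 CPM at 5 days. Library 6 kept CYCB1;1 near the 5-day level. DESeq2 called 0 genes of the group.

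Seed oil mobilisation had a median of -0.28 over 19 members, and of -0.43 without 12-day library 12. Separated members numbered 7 downward and 2 upward, where 12.4% and 10.7% of all genes were. ICL, isocitrate lyase of the glyoxylate cycle, stood at 5.71, 26.2 and 2.79 CPM at 12 days, against 39.1, 76.5 and 37.6 CPM at 5 days, a log2 fold change of -2.15 ± 0.73 (edgeR adjusted p 0.217, DESeq2 adjusted p 0.221). MLS, malate synthase of the same cycle, stood at 4.28, 1.13 and 2.74 CPM at 12 days, against 5.46, 15.9 and 7.11 CPM at 5 days (log2 fold change -1.8 ± 0.55, DESeq2 adjusted p 0.0254). Both glyoxylate enzymes were separated downward. PCK1, which carries the carbon on to sugar, overlapped at 135 to 148 CPM at 12 days and 112 to 176 CPM at 5 days. SDP1, the lipase that opens the oil bodies, was separated upward and averaged 41.3 ± 7.55 CPM at 12 days and 23.2 ± 1.01 CPM at 5 days (SD, n = 3 each), with a log2 fold change of 0.83 ± 0.22 (DESeq2 adjusted p 0.0437). Seed storage and late embryogenesis genes were scarce, with summed levels of 12.7, 11.5 and 25.6 CPM over 27 genes at 12 days, against 13, 6.89 and 8.68 CPM at 5 days, and 6 members had reads enough for edgeR's test. RAB18, a dehydrin induced by abscisic acid, overlapped at 5.3, 5.46 and 8.63 CPM at 12 days, against 8.24, 1.8 and 0.0871 CPM at 5 days. OLEO4, an oleosin, overlapped at 2.34 to 4.9 CPM at 12 days and 2.75 to 6.72 CPM at 5 days. Some untested members had more reads at 12 days. PER1, a seed peroxiredoxin, had 1.11, 0 and 2.07 CPM at 12 days, against 0, 0.0344 and 0 CPM at 5 days, and the oleosin OLEO1 had 0.111, 0.162 and 0.472 CPM at 12 days, against 0, 0.00689 and 0 CPM at 5 days (DESeq2 adjusted p 0.029). OLEO2 and EM6 had reads in every 12-day library and none in the 5-day libraries. SESA3, CRC and ABI3 stood at 0.193 CPM or less in every library. The cruciferin gene CRA1 reached 9.29 CPM in 12-day library 12 alone, with 0.954 and 0.0694 CPM in the other two 12-day libraries and 0.174 CPM or less at 5 days.

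Photosynthesis genes encoded in the nucleus had medians above 0. The median log2 fold change was 0.45 over 33 genes of electron transport, of which 31 were above 0. Of these genes 9 were separated upward and 0 downward, where 10.7% and 12.4% of all genes were. The median was 0.49 over 21 antenna genes, with 2 separated in each direction, which is not above those shares. It was 0.32 over 30 genes of the Calvin cycle and photorespiration, with 5 separated upward and 0 downward. Without 5-day library 4 these medians were 0.2, 0.17 and 0.2. The electron transport median was 0.78 without 5-day library 2 and 0.71 without 5-day library 8, and the Calvin cycle median was 0.15 without 12-day library 10. PSAF, a subunit of photosystem I, stood at 8550, 17600 and 8470 CPM at 12 days, against 5430, 2240 and 6730 CPM at 5 days. ATPC1, the gamma subunit of the chloroplast ATP synthase, stood at 951, 1370 and 1570 CPM at 12 days, against 594, 473 and 695 CPM at 5 days (log2 fold change 1.14 ± 0.3, edgeR adjusted p 0.175, DESeq2 adjusted p 0.0102). RBCS1A, a Rubisco small subunit gene with near-identical copies that may share its reads, stood at 20300 to 26400 CPM at 12 days and 11100 to 20100 CPM at 5 days. LHCB6 and PSBS, of the photosystem II antenna and its photoprotection, overlapped, at 988 to 2400 and 874 to 1360 CPM at 12 days and 1020 to 3170 and 575 to 1300 CPM at 5 days. The minor antenna gene LHCB4.3 was separated downward, at 10, 8.95 and 4.8 CPM at 12 days, against 23.7, 13.6 and 25.7 CPM at 5 days (log2 fold change -1.41 ± 0.35, DESeq2 adjusted p 0.0182).

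Chlorophyll synthesis had a median of 0.07 over 30 genes, and between -0.06 without 12-day library 12 and 0.24 without 12-day library 10. Of these genes 5 were separated in each direction, where 10.7% of all genes were separated upward and 12.4% downward. The light-dependent protochlorophyllide reductases differed among themselves. PORA, of dark-grown seedlings, was separated upward at 1.43, 1.94 and 3.69 CPM at 12 days, against 0.856, 0.751 and 0.401 CPM at 5 days. PORB was separated upward at 547, 547 and 959 CPM at 12 days, against 385, 238 and 402 CPM at 5 days, and PORC overlapped, averaging 162 ± 47.3 CPM at 12 days and 157 ± 14.4 CPM at 5 days (SD, n = 3 each). The early light-induced genes ELIP1 and ELIP2 were separated downward, with ELIP2 at 1.1, 0.0925 and 0.139 CPM at 12 days, against 4.35, 3.35 and 3.88 CPM at 5 days. Plastid-encoded genes gave a median of -0.05 over 25 genes tested. It was 0.35 without 12-day library 12, 0.13 without 5-day library 8, and -0.4 to -0.26 without 12-day library 10, 12-day library 6 or 5-day library 4. The plastid genes PSBA and RBCL stood at 1290, 1690 and 196 CPM and at 1570, 1770 and 244 CPM in 12-day libraries 6, 10 and 12, and at 547 to 1310 and 849 to 2800 CPM at 5 days. GLK1, a regulator of chloroplast genes, overlapped at 155 to 249 CPM at 12 days and 74.2 to 207 CPM at 5 days, as did the photolyase PHR2 at 173 to 185 CPM at 12 days and 80.4 to 245 CPM at 5 days, where 5-day library 4 is the low value.

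Heat shock genes had the lowest median of the 33 groups, at -1.51 over the 17 of 22 members tested, and -1.09 without 5-day library 4. By unadjusted p, 10 were lower and 1 higher, where 7.46% and 9.21% of all genes were. Separated members numbered 9 downward and 0 upward, where 12.4% and 10.7% of all genes were, and DESeq2 called 7 lower, where it called 1.49% of all genes lower. ROF2 (AT5G48570), a co-chaperone immunophilin, stood at 4.45, 3.05 and 4.12 CPM at 12 days, against 9.91, 17.3 and 12.3 CPM at 5 days, a log2 fold change of -1.76 ± 0.3 (edgeR adjusted p 0.171, DESeq2 adjusted p 0.000121). HSP70 (AT3G12580), an inducible chaperone, stood at 48.1, 40.5 and 52.9 CPM at 12 days, against 69.2, 200 and 103 CPM at 5 days (log2 fold change -1.39 ± 0.37, and -0.87 without library 4). HSP101, the chaperone of heat tolerance, overlapped at 2.73, 3.08 and 5.87 CPM at 12 days, against 5.42, 11.9 and 11 CPM at 5 days. The group's median level was -0.95, -0.84 and -0.27 in 12-day libraries 6, 10 and 12, against -0.1, 1.46 and 0.81 in 5-day libraries 2, 4 and 8, so library 2 lay close to 12-day library 12.

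Heat shock factors bind repeats whose core reads GAANNTTC, also a palindrome. This core lay in 11 of the 22 promoter windows of the group (50%) and in 3178 of all 27444 windows (11.6%). It also lay in 9 of the 30 windows of the phosphate starvation group (30%). Among all genes separated downward it lay in 11.7% of windows, against 11.3% for genes tested. The window of HSP17.4, a small heat shock protein of the cytosol, at chr3:16984818-16985117 on the minus strand, is shown because it holds 2 cores, in capitals. HSP17.4 was separated downward, at 0.223, 0.463 and 0.397 CPM at 12 days, against 1.04, 1.73 and 0.54 CPM at 5 days.
HSP17.4: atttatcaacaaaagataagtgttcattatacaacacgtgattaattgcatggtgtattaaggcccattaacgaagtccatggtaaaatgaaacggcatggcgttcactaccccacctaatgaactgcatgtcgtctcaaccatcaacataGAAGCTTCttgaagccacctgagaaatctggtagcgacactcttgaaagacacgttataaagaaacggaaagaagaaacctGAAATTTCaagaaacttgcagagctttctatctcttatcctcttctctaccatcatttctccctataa

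Rapid stress and touch genes had a median of -0.9 over 22 genes, which became 0.01 without 5-day library 4. WRKY40, one of their transcription factors, stood at 6.33, 13.5 and 8.81 CPM at 12 days, against 6.34, 35.5 and 6.2 CPM in 5-day libraries 2, 4 and 8. Its log2 fold change was -0.75 ± 0.65 and turned to 0.6 without library 4. Of the group, 3 genes were separated downward, where 12.4% of all genes were, among them CMPG1, a ubiquitin ligase gene, at 2.37, 0.856 and 0.793 CPM at 12 days, against 2.69, 8.25 and 4.74 CPM at 5 days.

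Jasmonate genes had a median of 0.41 over the 26 of 27 members tested, with 9 higher by unadjusted p, where 9.21% of all genes were. Separated members numbered 7 upward and 0 downward, where 10.7% and 12.4% of all genes were, and DESeq2 called 5 higher, where it called 2.77% of all genes higher. Beside VSP2, its neighbour VSP1 stood at 190, 107 and 18.4 CPM at 12 days, against 16, 5.72 and 2.51 CPM at 5 days (log2 fold change 3.71 ± 0.89). The JAZ repressors JAZ3 and JAZ9 were separated upward, with JAZ9 at 35.8, 68.3 and 46.8 CPM at 12 days, against 21.4, 17.7 and 26 CPM at 5 days (log2 fold change 1.21 ± 0.29, DESeq2 adjusted p 0.0136). AOC2, an allene oxide cyclase of jasmonate synthesis, stood at 49.5, 87.6 and 52.7 CPM at 12 days, against 39.3, 19.7 and 21.3 CPM at 5 days. LOX2, the lipoxygenase of the same pathway, overlapped, averaging 435 ± 211 CPM at 12 days and 340 ± 196 CPM at 5 days (SD, n = 3 each). VSP1 and VSP2 are similar in sequence, and reads they share make their separate levels less certain.

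Salicylic acid and defence genes had a median of 0.64 over 20 of 23 members, and 0.26 without 12-day library 12, in which the group stood highest. PR2, a beta-glucanase, stood at 0.986, 11.4 and 14.1 CPM at 12 days, against 1.18, 0.51 and 1.48 CPM at 5 days, so library 6 lay within the 5-day range. FMO1, which makes the defence signal N-hydroxypipecolic acid, was separated upward at 1.54, 1.85 and 2.06 CPM at 12 days, against 0.44, 0.324 and 0.61 CPM at 5 days (log2 fold change 2 ± 0.46, DESeq2 adjusted p 0.00439). WRKY18 was separated downward at 3.43, 2.73 and 2.5 CPM at 12 days, against 10.7, 5.72 and 10.6 CPM at 5 days (log2 fold change -1.64 ± 0.33, DESeq2 adjusted p 0.00227). PR5 overlapped and averaged 6.99 ± 2.95 CPM at 12 days and 11.1 ± 6.27 CPM at 5 days (SD, n = 3 each). PR1 had 0, 0.139 and 0.643 CPM at 12 days and 0 reads in every 5-day library.

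Nitrogen genes had a median of 0.44 over 18 of 21 members, and 0.28 without 12-day library 10. Separated members numbered 4 upward and 2 downward, where 10.7% and 12.4% of all genes were. The nitrate transporter NRT2.1 stood at 6.46, 302 and 63.9 CPM at 12 days, against 14.1, 0.847 and 2.04 CPM at 5 days, so the ages overlapped through library 6 and library 2. WR3 (NAR2.1), the partner protein of NRT2.1, was separated upward at 57.1, 208 and 62.4 CPM at 12 days, against 43.7, 14.3 and 33.5 CPM at 5 days. Iron genes gave a median of -0.08 over 24 of 26 members. It was -0.25 without 12-day library 6, 0.04 without 12-day library 10, 0.31 without 12-day library 12 and 0.23 without 5-day library 2. The iron transporter IRT1 stood at 90.4, 31.9 and 3.78 CPM in 12-day libraries 6, 10 and 12, against 19.4, 6.23 and 7.79 CPM at 5 days, and the ferritin FER1 overlapped at 289 to 1530 CPM at 12 days and 600 to 1490 CPM at 5 days. IRT1 is a root gene, and its low value fell in library 12, where root markers were low, but a link between them was not tested.

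Clock genes had a median of 0.55 over 20 members, with 18 above 0. Separated members numbered 6 upward and 0 downward, where 10.7% and 12.4% of all genes were. PRR5, an evening repressor, stood at 18.7, 19.6 and 70.8 CPM at 12 days, against 6.06, 5.77 and 3.61 CPM at 5 days (log2 fold change 2.82 ± 0.54, DESeq2 adjusted p 8.89e-06), and edgeR called it without library 12 (log2 fold change 1.91, adjusted p 0.0317). FKF1, a blue-light receptor of day length, stood at 1.11, 0.625 and 4.89 CPM at 12 days, against 0.162, 0.331 and 0.0697 CPM at 5 days. GI, its partner, stood at 81.2, 95.4 and 153 CPM at 12 days, against 66.5, 73.4 and 51 CPM at 5 days. The morning gene CCA1 overlapped at 35.9 to 84.5 CPM at 12 days and 33 to 53.8 CPM at 5 days, as did TOC1 at 16.2 to 35.6 CPM at 12 days and 13.9 to 20.8 CPM at 5 days. Harvest time is given only as about 4 h after lights on, so a shift of the harvest between ages cannot be told apart from age. PIF4, a growth regulator under clock and light control, was separated upward at 126, 193 and 141 CPM at 12 days, against 71.4, 38.2 and 84.5 CPM at 5 days.

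Auxin genes had a median of 0.9 over the 25 of 26 members tested, and 0.26 without 12-day library 12. GH3.5, an enzyme that conjugates auxin, stood at 76.9, 92 and 321 CPM at 12 days, against 44.8, 48 and 53.8 CPM at 5 days. The auxin importer AUX1 stood at 289, 307 and 493 CPM at 12 days, against 143, 192 and 192 CPM at 5 days (log2 fold change 1.05 ± 0.29, DESeq2 adjusted p 0.0248), and the exporter PIN4 at 130, 168 and 188 CPM at 12 days, against 93.3, 66.5 and 86.6 CPM at 5 days. These transporters were separated with library 6 included. PIN2, an exporter of the root tip, was separated downward and averaged 10.6 ± 8.02 CPM at 12 days and 22.2 ± 1.69 CPM at 5 days (SD, n = 3 each).

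Root genes were low in 12-day library 12. The root group's median was 0.25 with all libraries, -0.23 without 12-day library 6, 0.02 without 12-day library 10 and 0.58 without 12-day library 12. It was 0.1 without 5-day library 2 and 0.15 without 5-day library 8. TIP2;3, a tonoplast water channel of roots, was nevertheless separated upward, at 19.6, 13.3 and 8.79 CPM at 12 days, against 1.23, 4.17 and 2.18 CPM at 5 days (log2 fold change 2.44 ± 0.48, DESeq2 adjusted p 7.64e-05). EXPA7, of root hairs, overlapped at 24, 40.6 and 4.03 CPM at 12 days, against 13.6 to 15.8 CPM at 5 days, and PLT1, of the root stem cell niche, at 0.257 to 1.13 CPM at 12 days and 0.61 to 1.45 CPM at 5 days. With library 12 left out, edgeR called 115 genes, among them CASP1 (log2 fold change 1.6, adjusted p 0.0363), CASP2 and TIP2;3. The same fit called AIR1, a proline-rich wall protein of roots, at 284, 215 and 11.3 CPM in 12-day libraries 6, 10 and 12, against 15.9, 7.39 and 11.7 CPM at 5 days. AIR1 was chosen after its values were seen, as the gene with the smallest adjusted p (0.0107) in that fit. Library 12 had been set apart by its low root markers, CASP1 among them. The calls of CASP1, CASP2 and AIR1 rest on that choice and are no separate evidence of an age change. With all libraries these genes overlapped between the ages. CASP1 then had a log2 fold change of 1.11 (DESeq2 adjusted p 0.235), and AIR1 of 3.87 (DESeq2 adjusted p 0.0195). The laccase LAC4, which polymerises lignin in vessels, was separated upward with all libraries, at 74.4, 120 and 61.7 CPM at 12 days, against 28.8, 26.5 and 30.4 CPM at 5 days (log2 fold change 1.58 ± 0.28, edgeR adjusted p 0.171, DESeq2 adjusted p 0.00033). CESA4, a cellulose synthase of secondary walls, overlapped at 15.4 to 33.5 CPM at 12 days and 14.9 to 17.9 CPM at 5 days, and CESA1, of primary walls, was separated at 873 to 932 CPM at 12 days and 632 to 730 CPM at 5 days.

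Flavonoid genes had a median of -0.9 over the 19 of 22 members tested, -0.46 without 12-day library 12 and -0.51 without 5-day library 2. The first enzyme of the pathway, CHS, stood at 186, 106 and 25.8 CPM at 12 days, against 167, 242 and 248 CPM at 5 days, and FLS1 and DFR overlapped likewise. TT8, an activator of late pathway genes, was separated downward at 0.143, 0.139 and 0.0536 CPM at 12 days, against 0.833, 0.338 and 0.453 CPM at 5 days. MYBL2, a repressor of the pathway, was separated upward at 424, 1560 and 885 CPM at 12 days, against 170, 212 and 199 CPM at 5 days (log2 fold change 2.31 ± 0.45, DESeq2 adjusted p 2.09e-05), and edgeR called it without library 6 (adjusted p 0.0372). That call likewise rests on leaving out the lowest 12-day value. Glucosinolate genes had a median of 0.14 over 27 genes, whose sign rested on single libraries. It was -0.12 without 12-day library 6, -0.03 without 12-day library 10 and 0.41 without 12-day library 12. With 1 5-day library left out it was 0.27 without library 2, 0.05 without library 4 and 0.04 without library 8. GSTU20, a transferase of their synthesis, was separated downward at 181, 67.8 and 68.1 CPM at 12 days, against 439, 259 and 309 CPM at 5 days. TGG1 and TGG2, the myrosinases that break glucosinolates down, were separated upward, with TGG2 at 259, 2080 and 667 CPM at 12 days, against 171, 185 and 242 CPM at 5 days. CYP79F1 and CYP79B2 overlapped.

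Stomatal genes gave a median of 0.07 over 21 genes, 0.28 and 0.13 without 12-day libraries 10 and 6, and 0.17 and 0.15 without 5-day libraries 2 and 8. Of these genes 3 were separated in each direction, near the 10.7% upward and 12.4% downward of all genes. FAMA, which drives the last division into guard cells, stood at 18, 23.8 and 22.4 CPM at 12 days, against 9.91, 9.49 and 13.2 CPM at 5 days (log2 fold change 0.98 ± 0.24, DESeq2 adjusted p 0.0264). HT1, a kinase of the guard cell response to carbon dioxide, stood at 4.8, 8.26 and 8.38 CPM at 12 days, against 2.38, 2 and 3.24 CPM at 5 days (log2 fold change 1.49 ± 0.35, DESeq2 adjusted p 0.00587). POLAR and BASL, polarity proteins of asymmetric division, were separated downward, with POLAR at 3.37, 1.23 and 2.68 CPM at 12 days, against 5.72, 3.95 and 4.84 CPM at 5 days, and SPCH, which starts the lineage, overlapped at 2.57 to 5.36 CPM at 12 days and 3.18 to 7.82 CPM at 5 days. Trichome genes had a median of 0.27 over 17 genes, -0.19 without 12-day library 6, 0.47 without 12-day library 12 and 0.18 without 5-day library 2. Their summed level was 118, 184 and 133 CPM at 12 days, against 96.5, 85.7 and 98.3 CPM at 5 days. Of the 17 genes, however, 0 were separated upward and 3 downward, where 10.7% and 12.4% of all genes were. By library, the group's median level was 0.41, -0.13 and -0.28 in 12-day libraries 6, 10 and 12. In 5-day libraries 2, 4 and 8 it was -0.28, -0.11 and 0.1, so the sum and the medians differ. TTG1, a WD-repeat regulator, overlapped at 30.3, 53.5 and 72.8 CPM at 12 days, against 24.1, 30.5 and 30 CPM at 5 days. GL3, its partner, was separated downward and stood at 0.139 to 0.324 CPM at 12 days and 0.418 to 0.81 CPM at 5 days, and GL1 at 0.279 CPM or less in every library. Wax, cutin and suberin genes had a median of -0.02 over 26 genes. It was -0.14, 0.1 and 0.03 without 12-day libraries 6, 10 and 12, and -0.05, -0.01 and -0.12 without 5-day libraries 2, 4 and 8. Separated members numbered 2 upward and 1 downward, where 10.7% and 12.4% of all genes were, and DESeq2 called 0. Of the cuticle genes, GPAT4 and GPAT8, acyltransferases of cutin synthesis, were separated upward, with GPAT4 at 97.3, 131 and 124 CPM at 12 days, against 61.8, 73.9 and 81.2 CPM at 5 days. CER1, of wax alkane synthesis, overlapped at 105 to 271 CPM at 12 days and 83.1 to 109 CPM at 5 days.

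Expansins, which loosen cell walls, differed among themselves. EXPA8 was separated upward at 195, 446 and 168 CPM at 12 days, against 93.9, 113 and 85.2 CPM at 5 days (log2 fold change 1.47 ± 0.38, DESeq2 adjusted p 0.0102). EXPA10 was separated downward at 48.2, 27 and 22.5 CPM at 12 days, against 76, 56.5 and 55 CPM at 5 days (log2 fold change -0.94 ± 0.32, DESeq2 adjusted p 0.119). The whole group of cell expansion and primary wall genes had a median of 0.04 over 20 genes, and 0.12 without 5-day library 4. Separated members numbered 2 upward and 3 downward, near the 10.7% and 12.4% of all genes.

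**Figure D4:**
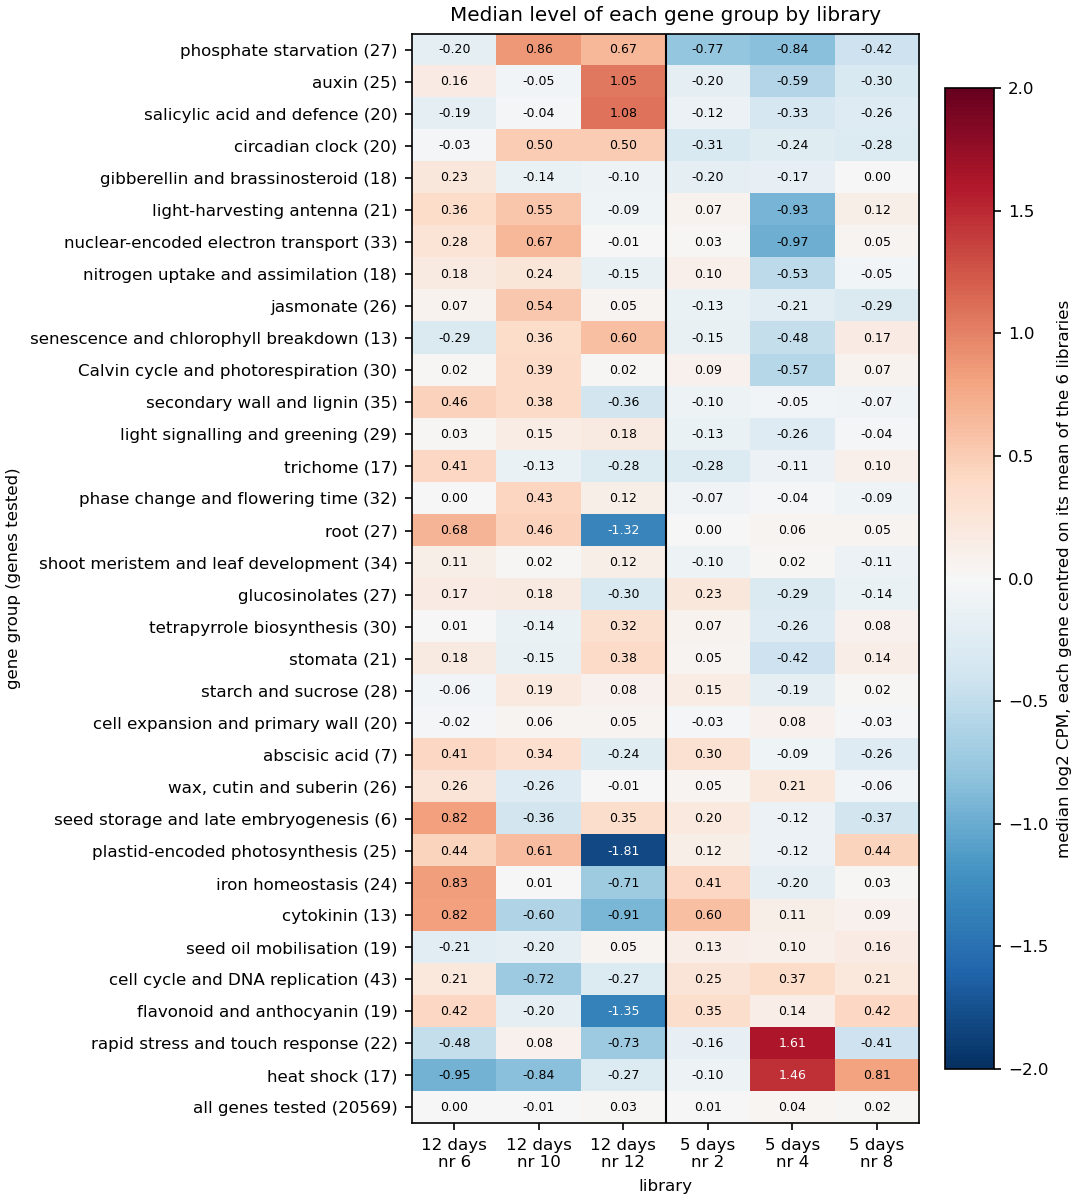
Median level of each gene group in each wild-type library (log2 CPM, each gene centred on its mean of the 6 libraries; groups run down the page with the number of genes tested, sorted by median log2 fold change, libraries run across, 12 days left of the line). The phosphate starvation group runs from -0.20 to 0.86 at 12 days and -0.84 to -0.42 at 5 days, and library 12 is low for root and plastid genes.

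**Figure D5:**
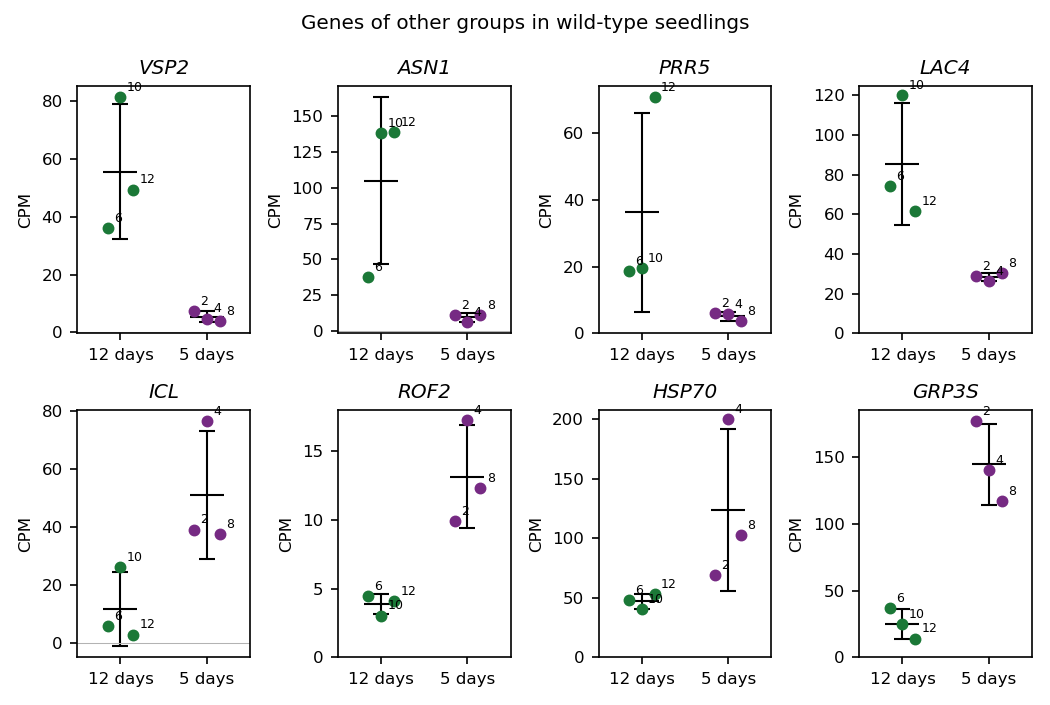
Level of 8 genes of other groups in each wild-type library (CPM, linear axes; points are libraries labelled by number, horizontal lines and bars are the mean ± SD of 3 libraries, 12 days on the left, 5 days on the right). VSP2, ASN1, PRR5 and LAC4 are higher and ICL, ROF2, HSP70 and GRP3S lower in every 12-day library.

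Whether the age effect differed between wild type and geralt was tested as an interaction over all 12 libraries. No gene was called by edgeR (0 of 21122 tested, smallest adjusted p 0.438), 2185 (10.3%) had an unadjusted p under 0.05, and DESeq2 called 70. The 12 to 5 day contrast within geralt likewise gave 0 calls in edgeR, with 974 genes at an unadjusted p under 0.05. For PS2 the log2 fold change was 4.13 in wild type and -0.28 in geralt, with an unadjusted interaction p of 0.0014 in edgeR. For PAP14 it was 5.02 in wild type and 5.24 in geralt. Both genes were taken from the 12 largest positive changes in wild type and not by this test, in which neither was called. The phosphate group's median was 1.26 in wild type and 0.39 in geralt, and the heat shock group's was -1.51 in wild type and -0.95 in geralt. Differences between genotypes in these medians were not tested. The wild-type fold changes and medians come from the fit of the 6 wild-type libraries, and those of geralt from the fit of all 12.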

How the data were processed

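Libraries were made with a Lexogen mRNA-Seq kit and sequenced as pairs of 150 bases, 6 to a lane, and the lane of each library was not given. The authors deposited, for each library, total gene read counts and TPM per gene of the TAIR10 build, per the file headers and the submitters' processing notes. The aligner was not given in the sources used here, and whether a read pair counts once or as 2 reads was not stated there either. The authors' deposited tables comparing geralt with wild type were not used. Counts were tested with edgeR 4.0.16 (R 4.3.3; TMM scaling, its filter on low counts by age, quasi-likelihood test, Benjamini-Hochberg adjustment, 4 residual degrees of freedom) over the 6 wild-type libraries, and errors are SE from that fit. DESeq2 1.42.0, other scalings, no filter, unique reads, limma 3.58.1 on log2(TPM + 0.5), a fit of all 12 libraries and leaving out each library were alternatives. The test was checked on simulated counts. The members and gene lists were chosen with earlier results of these data known. The rule for named genes was an adjusted p under 0.05, no overlap of the ages and a mean level of 1 or more on the log2 CPM scale. As no gene met it, the 12 largest changes each way and the 12 smallest p were taken under the unadjusted p, with 64 list members marked for naming. Other members were named after their values were seen. Of 845 list members, 844 were in the files and 772 had reads enough for the test. Sequences come from RefSeq TAIR10.1, in which 27444 of 27445 chromosome genes had the same code, start and end as in the files. MicroRNA sites were searched in RefSeq transcripts allowing mismatches.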

Additional observations from a re-analysis of the deposited data

How the results depend on the processing

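No paired analysis was possible because the 2 ages share no replicate numbers. Against 0 genes called by edgeR with all 6 libraries (3429 at an unadjusted p under 0.05), DESeq2 called 909, 592 higher and 317 lower. Leaving out 1 library gave 0 to 117 calls, 0 to 110 higher and 0 to 41 lower, with 117 (76 higher, 41 lower) without 12-day library 6 and 115 (110 higher, 5 lower) without 12-day library 12. Leaving out 5-day library 4 and 12-day library 12 gave 3 calls, 3 higher and 0 lower. For the interaction, 0 calls became 70 in DESeq2 and 0 to 2 when 1 library was left out. The cause of these differences was not tested. The median over all genes was 0.02, and -0.22 by limma on TPM. Group medians by limma on TPM were 0.61 for phosphate starvation, 0.01 for phase change and 0.04 for Calvin cycle genes. They were -0.04 for trichome and -0.55 for seed oil genes. For electron transport, antenna, cell cycle and flavonoid genes they were 0.27, 0.29, -0.71 and -0.72. Of the 91 named genes that this check covered, 22 changed sign in at least 1 alternative. Other genes named in the text were not part of it. By limma on TPM the log2 fold change was -0.21 for PCK1, -0.04 for PSBS, -0.26 for PORC, -0.45 for PSBA, -0.01 for TOE1, -0.14 for EXPA7, -0.27 for CYP79B2 and -0.04 for PHR2. Without 5-day library 4 and 12-day library 12 the log2 fold change was -0.15 for PORC, 0.13 for STM and for PLT1, 0.11 for SMZ, 0.23 for FLC, -0.44 for LOX2, 0.66 for WRKY40 and -0.26 for PHR2. For CCA1 it was 0.8, against 0.4 with all libraries, so the sign held there. With 1 library left out it ran from -0.09 to 0.24 for PCK1, -0.12 to 0.39 for PSBS, -0.63 to 0.05 for LHCB6, -0.13 to 0.28 for PORC, -0.32 to 0.67 for PSBA, -0.27 to 0.22 for STM, -0.76 to 0.02 for SMZ, -0.93 to 0.11 for FLC, -1.21 to 0.12 for GL1, -0.86 to -0.09 for PLT1, -0.05 to 1.14 for EXPA7, -1.29 to 0.03 for FER1, -0.05 to 0.63 for CYP79F1, -0.49 to 0.47 for CYP79B2, -0.09 to 0.88 for LOX2, -1.14 to 0.6 for WRKY40, -0.06 to 0.63 for CCA1, -0.09 to 0.48 for GLK1, -0.27 to 0.44 for PHR2, -0.79 to 0.26 for ABI5 and -0.46 to 0.07 for GBSS1. A depth of 41.6 M reads or more left 20569 of 27655 genes with enough reads for the test.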

Other observations

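Genes of chlorophyll breakdown and senescence had a median log2 fold change of 0.37 over 13 genes. It was 0.6 without 12-day library 6 or 5-day library 8, 0.19 without 12-day library 12, and -0.05 without 5-day library 4 and 12-day library 12 together. Separated members numbered 2 upward and 1 downward, where 10.7% and 12.4% of all genes were. RCCR, a chlorophyll catabolite reductase, stood at 94.8, 133 and 93.8 CPM in 12-day libraries 6, 10 and 12, against 54.8, 55.4 and 59.6 CPM in 5-day libraries 2, 4 and 8 (DESeq2 adjusted p 0.0247). SEN1, a gene of darkness and senescence, stood at 15.8, 74.4 and 21.7 CPM at 12 days, against 12.4, 6.78 and 10.8 CPM at 5 days. In starch metabolism, with a median of 0.05 over 28 genes, which ran from -0.09 without 5-day library 4 to 0.16 without 5-day library 2, APL3, a subunit of ADP-glucose pyrophosphorylase, lay lower in every 12-day library, at 21.5, 16.8 and 17.1 CPM at 12 days, against 61.5, 25.4 and 43.2 CPM at 5 days (DESeq2 adjusted p 0.0294). GBSS1, a starch synthase, overlapped at 17.5 to 40.5 CPM at 12 days and 26.3 to 45.9 CPM at 5 days. Of the 28 genes of this group, 3 were separated upward and 1 downward, against the same shares of all genes.

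Abscisic acid genes had a median of -0.01 over 7 genes. It was -0.25, 0.06 and 0.12 without 12-day libraries 6, 10 and 12, and 0.26, 0.32 and 0.07 without 5-day libraries 2, 4 and 8. Separated members numbered 1 upward and 0 downward, where 10.7% and 12.4% of all genes were. NCED3, a rate-limiting enzyme of abscisic acid synthesis, stood at 21.1, 11.2 and 10.1 CPM at 12 days, against 3.84, 7.91 and 4.95 CPM at 5 days (log2 fold change 1.34 ± 0.38, edgeR adjusted p 0.188, DESeq2 adjusted p 0.0299). The ABA response factor ABI5 overlapped at 0.207 to 0.301 CPM at 12 days and 0.122 to 0.602 CPM at 5 days. Cytokinin genes had a median of -0.25 over 13 genes, whose sign rested on single libraries. It was -0.95 without 12-day library 6, 0.02 without 12-day library 10 and 0.08 without 12-day library 12, and -0.1 and -0.41 without 5-day libraries 2 and 8. Of the 13 cytokinin genes, 0 were separated upward and 2 downward, against the same shares of all genes. ARR16, a response regulator, stood at 0.159, 0.208 and 0.139 CPM at 12 days, against 0.741, 0.703 and 0.47 CPM at 5 days. GASA6, a gibberellin-regulated peptide, lay higher in every 12-day library and averaged 162 ± 60 CPM at 12 days and 72.3 ± 10.1 CPM at 5 days (SD, n = 3 each; DESeq2 adjusted p 0.0238). Of the 18 genes of its group, gibberellin and brassinosteroid, 2 were separated upward and 0 downward.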
